A study of Homo sapiens with 24 samples.

Results

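The 8 transcription factors described here, HNF4A, FOXA1, FOXA2, FOXA3, ONECUT1, CEBPA, PROX1 and NR5A2, belong to the hepatocyte lineage, and their transcripts were measured in HepG2, a human liver cancer cell line. They were chosen by symbol, and all 8 were present among the 26475 gene symbols of the count data. In liver, HNF4A, CEBPA and ONECUT1 drive hepatocyte genes, the FOXA factors open chromatin for other factors, and PROX1 and NR5A2 act in hepatoblast growth and in bile acid and cholesterol metabolism. These factors bind the regulatory regions of each other's genes and so form a connected network. BET proteins bind acetylated histones at such regions and help to recruit the transcription machinery.

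The 24 RNA-seq libraries formed 8 groups of 3. Cells received DMSO as the solvent control, ABBV-075 (an inhibitor of the bromodomains of BET proteins) at 50 nM for 12 h, ABBV-744 (an inhibitor selective for the second bromodomain of these proteins) at 50 nM or 500 nM, IFNg (interferon gamma), or IFNg with each of the 3 inhibitor treatments. The study describes its DMSO and ABBV-075 samples as independent and in triplicate. As worded there, DMSO was given for longer than ABBV-075, and whether this holds for these DMSO libraries could not be told. The exposure times in the other groups, those with IFNg included, the IFNg dose and whether libraries of those groups came from separate cultures were not given in the sources used here, so the spread behind their p-values may be technical.

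Each library held 23037861 to 28925049 reads, of which 56.0% to 69.4% mapped to more than 1 place and were not counted. Reads on genes numbered 2978982 to 4304103 per library (median 3462418.5), which sets the precision of the low-abundance factors. ONECUT1 had only 6 to 29 counts per library, NR5A2 11 to 51 and FOXA2 32 to 62, whereas CEBPA had 707 to 1149 and HNF4A 424 to 745. Levels are given in CPM, over library sizes of all counts on genes scaled by TMM factors. The lowest correlation between libraries of a group was r = 0.958 across tested genes. In bulk RNA of this kind, fewer cells that make a transcript and less transcript per cell cannot be told apart.

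Markers of hepatocyte-like cells were abundant in every library, with a summed level of 13490 to 17340 CPM over 7 genes. SERPINA1 had a mean of 5365 CPM in DMSO and ALB, serum albumin, one of 3055 CPM. The 11 markers of other cell types summed to 221 to 477 CPM, of which KRT19, a keratin of bile duct cells, was the most abundant at 106 to 313 CPM. The sum was 365 to 394 CPM in DMSO, 297 to 367 in ABBV-075, 399 to 454 in ABBV-744 at 50 nM and 400.4 to 477 at 500 nM. With IFNg it was 324 to 387 CPM in IFNg alone and 262 to 319 in IFNg with ABBV-075. In IFNg with ABBV-744 it was 221 to 233 CPM at 50 nM and 268 to 275 at 500 nM. Of the tested markers of other cell types, 3 of 5 were called lower with ABBV-075 against DMSO, against 19.6% of all genes, and 0 higher, against 19.8%. With ABBV-744 at 50 nM PDGFRB was called lower (-1.25) and SOX9 higher (0.39), and at 500 nM PDGFRB lower (-1.21) and SOX9 (0.39) and ACTA2 (0.53) higher. Against IFNg, 5 of 6 were called lower with ABBV-075, against 28.4% of all genes. With ABBV-744 at 50 nM 5 of 6 were called lower, among them KRT19 (-0.87) and CD68 (-1.27), against 24.3%. At 500 nM 4 of 5 were called lower, against 22.8%. None was called higher in these comparisons with IFNg, against 28.2%, 27.4% and 22.9% of all genes. PTPRC, the defining marker of white blood cells, had 0 counts in every library, and KRT7 and COL1A1 had 0 counts in DMSO. Responses to the treatments were also read from known genes. HEXIM1, a gene that rises under BET inhibition, rose with ABBV-075 (log2 fold change 1.41) and with ABBV-744 at 500 nM (0.74). With ABBV-744 at 50 nM its mean was 64.8 CPM, against 53.8 CPM in DMSO. Its mean was 47.0 CPM in IFNg alone and 135 CPM in IFNg with ABBV-075. In IFNg with ABBV-744 it was 49.5 CPM at 50 nM and 71.5 CPM at 500 nM. The histone gene HIST2H2BE rose with ABBV-075 (1.19), with ABBV-744 at 50 nM (0.69) and at 500 nM (0.82). SERPINI1 rose with ABBV-075 (2.12). With ABBV-744 at 50 nM its mean was 4.37 CPM, against 4.47 CPM in DMSO, and with IFNg added 10.3 CPM, against 3.00 CPM in IFNg alone. IFNg raised GBP1 (4.89) and IRF1 (4.26), both direct targets of interferon signalling.

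The libraries differed in a property that has to stand beside the results. The GC contrast of a library is a difference of medians on the log2 scale. It takes each gene's deviation from its mean over all libraries, and subtracts the median over the GC-poorest genes (up to the first quartile, 41.4% GC) from that over the richest (from the last quartile, 55.9%). It was 0.51 to 1.08 in ABBV-744 at 50 nM and -0.71 to -0.65 in IFNg with ABBV-744 at 50 nM, against 0.09 to 0.33 in DMSO and 0.16 to 0.57 in IFNg. ABBV-075 libraries ranged from -0.73 to 0.20, and those with IFNg and ABBV-075 from -0.63 to -0.12. Reads outside genes differed as well, with 14.8% to 17.3% in ABBV-744 at 50 nM and 22.8% to 24.2% in IFNg with ABBV-744 at 50 nM. Among the 8 factors, transcripts of CEBPA (65.9% GC), FOXA3 (60.1%) and FOXA2 (59.1%) were GC-rich, and those of PROX1 (40.7%) and NR5A2 (40.1%) were GC-poor. HNF4A (54.9%), FOXA1 (50.4%) and ONECUT1 (47.4%) lay between. The calls on the 8 factors are therefore given also after a correction of every library for the GC content of genes. Where the GC contrast does not overlap between groups, this correction and the treatment cannot be told apart. That was so for ABBV-744 at 50 nM against DMSO, for each inhibitor with IFNg against IFNg, and between the inhibitors. Calls that the correction ended, turned or added there do not show which value is right. A length correction and a fit with the share of reads outside genes as a covariate were further alternatives. In DMSO this share was 20.54% to 23.97%, above every ABBV-744 library at 50 nM or 500 nM without IFNg. With IFNg it was 16.2% to 21.3% under ABBV-075 and 18.1% to 18.9% under ABBV-744 at 500 nM, below every library under ABBV-744 at 50 nM. Where groups are apart in this way, the covariate and the treatment cannot be told apart, and a call lost with the covariate does not speak against the call.

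Per kilobase of joined exons, CEBPA was the most abundant of the 8 factors in DMSO at 87.8 CPM per kb ± 4.50 (SD, n = 3). FOXA3 followed at 23.5 ± 4.09, HNF4A at 14.9 ± 0.524 and FOXA1 at 13.6 ± 2.47 CPM per kb. PROX1 stood at 6.03 ± 0.740, FOXA2 at 4.84 ± 0.539, NR5A2 at 1.31 ± 0.288 and ONECUT1 at 0.742 ± 0.293 CPM per kb. In this order the neighbours HNF4A and FOXA1, PROX1 and FOXA2, and NR5A2 and ONECUT1 overlapped between libraries, and the other neighbours did not. With the longest transcript as the length, HNF4A moved to 32.0 CPM per kb, above FOXA3 at 25.9, because its joined exons (10167 bases) are much longer than that transcript (4739 bases).

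**Figure D1:**
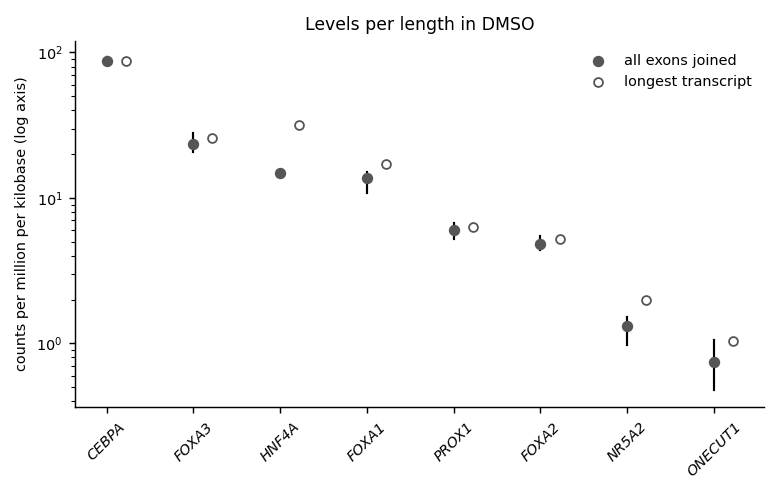
Levels of the 8 factors per length in DMSO, in CPM per kilobase on a log axis. Filled points are means over 3 libraries with joined exons as the length, lines run from the lowest to the highest library, and open points use the longest transcript. CEBPA is highest at 87.8 and ONECUT1 lowest at 0.742.

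Promoters are shown for ONECUT1, NR5A2 and FOXA1, which fell with ABBV-075 without or with IFNg, and for HNF4A, which has 2 start sites. Of the 8 factors, 6 had a promoter entry in RefSeq on GRCh38.p14, with 8 entries in all, each running from 250 bases before to 50 bases after a start site. Capitals mark matches on either strand. The motifs searched were TGTTTAC and the variant spelling TGTTTGC for the forkhead factors, ATTGATT for ONECUT1 and its paralogues, AGATAA for factors of the GATA family, the core promoter box spelled TATAAA, and the box spelled CCAAT. Matches were allowed to overlap, as the ONECUT motif and a reversed match of the last can, but none of the marked matches did. HNF4A has an upstream start (chr20:44355449-44355748, plus strand), shown here, and a downstream start inside the gene (chr20:44400989-44401288, plus strand), whose window held no match to these motifs.
HNF4A upstream: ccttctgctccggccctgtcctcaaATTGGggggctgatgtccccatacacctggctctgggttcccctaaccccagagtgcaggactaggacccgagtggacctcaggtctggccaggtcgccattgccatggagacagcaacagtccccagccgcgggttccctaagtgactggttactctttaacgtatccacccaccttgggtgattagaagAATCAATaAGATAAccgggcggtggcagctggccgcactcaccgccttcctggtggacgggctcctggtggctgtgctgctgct
NR5A2 likewise has 2 entries on the plus strand, at chr1:200027460-200027759 and chr1:200042341-200042640.
NR5A2 first: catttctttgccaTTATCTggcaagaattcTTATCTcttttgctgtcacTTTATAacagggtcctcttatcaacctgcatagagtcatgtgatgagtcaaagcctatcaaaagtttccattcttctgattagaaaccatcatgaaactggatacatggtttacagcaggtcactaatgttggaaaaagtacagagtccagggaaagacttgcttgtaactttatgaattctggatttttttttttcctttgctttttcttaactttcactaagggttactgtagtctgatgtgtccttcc
NR5A2 second: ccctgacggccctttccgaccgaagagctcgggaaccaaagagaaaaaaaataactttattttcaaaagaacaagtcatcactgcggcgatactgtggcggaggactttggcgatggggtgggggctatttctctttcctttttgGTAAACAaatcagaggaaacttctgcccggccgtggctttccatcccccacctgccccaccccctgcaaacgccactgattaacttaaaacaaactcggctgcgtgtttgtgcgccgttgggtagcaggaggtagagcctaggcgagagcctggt
FOXA1 (chr14:37595200-37595499) and ONECUT1 (chr15:52790287-52790586) lie on the minus strand.
FOXA1: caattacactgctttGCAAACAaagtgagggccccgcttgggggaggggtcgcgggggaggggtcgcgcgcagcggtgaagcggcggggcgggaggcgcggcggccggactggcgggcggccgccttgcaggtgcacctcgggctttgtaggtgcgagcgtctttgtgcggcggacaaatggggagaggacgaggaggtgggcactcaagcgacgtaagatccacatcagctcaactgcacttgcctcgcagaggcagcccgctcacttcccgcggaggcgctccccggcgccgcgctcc
ONECUT1: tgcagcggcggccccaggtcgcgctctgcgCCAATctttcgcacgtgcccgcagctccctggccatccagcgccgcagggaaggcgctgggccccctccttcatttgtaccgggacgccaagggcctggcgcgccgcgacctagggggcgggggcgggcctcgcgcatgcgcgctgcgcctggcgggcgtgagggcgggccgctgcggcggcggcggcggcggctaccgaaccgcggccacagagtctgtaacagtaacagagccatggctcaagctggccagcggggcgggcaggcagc
The upstream HNF4A promoter held a match to ATTGATT 34 bases before the start and one to AGATAA 26 bases before it, and the second NR5A2 promoter held a match to TGTTTAC. The promoters of CEBPA and FOXA3, not printed, each held TATAAA 30 bases before the start. Of all 35116 promoters in the table, 3.42% held TGTTTAC, 3.89% TGTTTGC, 2.18% ATTGATT, 10.3% AGATAA, 11.5% TATAAA and 34.6% CCAAT. The matches are descriptions of these windows. Counts per gene do not separate the start sites of HNF4A or NR5A2.

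ABBV-075 at 50 nM against DMSO asked what inhibition of both BET bromodomains does to the factors. A gene was called changed when its p from the quasi-likelihood test of edgeR, adjusted after Benjamini and Hochberg over all tested genes, was at most 0.05. By that rule 2 of the 8 factors fell, ONECUT1 and NR5A2, against 19.6% of 11244 tested genes, and 0 rose, against 19.8%, so the factors were called no more often than genes at large. The median log2 fold change was -0.30 over the 8 factors and 0.03 over all genes. At unadjusted p under 0.05 there were 3 factors, and DESeq2 called 1. When a log2 fold change of at least 1.5 in size was also asked, edgeR called 0 factors (0 at unadjusted p, 0 by DESeq2) against 4.28% of all genes.

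ABBV-744 at 50 nM against DMSO changed 5 of the 8 factors. HNF4A, FOXA3 and CEBPA rose, against 8.81% of 11116 genes, and PROX1 and NR5A2 fell, against 10.1%. ABBV-744 at 500 nM raised 2 factors, HNF4A and CEBPA, against 7.48% of 11124 genes, and lowered 0, against 7.8%. At unadjusted p under 0.05 there were 5 factors at 50 nM and 6 at 500 nM. At 500 nM these included FOXA3, which was higher, and NR5A2, PROX1 and ONECUT1, which were lower. Without the TMM factors, scaled by library size alone, ABBV-744 at 50 nM gave 415 higher and 1220 lower genes in place of 979 and 1123, a shift of the median of all genes by -0.10, and ABBV-744 at 500 nM gave 475 and 1067 in place of 832 and 868. IFNg alone against DMSO called 0 of 8 factors in edgeR, with 0 at unadjusted p under 0.05 and 0 by DESeq2, against 2.76% of 11217 genes higher and 0.695% lower. The factors' log2 fold changes under IFNg were at most 0.26 in size. By library size alone IFNg gave 250 higher and 204 lower genes in place of 310 and 78.

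In IFNg-treated cells, ABBV-075 changed 4 of the 8 factors against IFNg alone. CEBPA rose, against 28.2% of 11187 genes, and HNF4A, FOXA1 and NR5A2 fell, against 28.4%, and 0 passed the size threshold of 1.5 (0 at unadjusted p, 0 by DESeq2), against 6.17%. ABBV-744 at 50 nM with IFNg raised 2 factors, ONECUT1 and PROX1, against 27.4% of 11150 genes and lowered 0, against 24.3%, and DESeq2 called 0. With ABBV-744 at 500 nM and IFNg, FOXA1 fell, against 22.8% of 11091 genes, and 0 factors rose, against 22.9%; DESeq2 called 0. These 3 comparisons share the IFNg libraries, and those against DMSO share the DMSO libraries. DESeq2's size factors, RLE normalization and library size alone move all genes of a comparison alike. No factor called in any comparison turned its direction under them. Such small common shifts could hardly turn a called change, so this does not show that the directions are stable. Some factors turned their direction under the GC correction and the covariate described above.

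**Figure D2:**
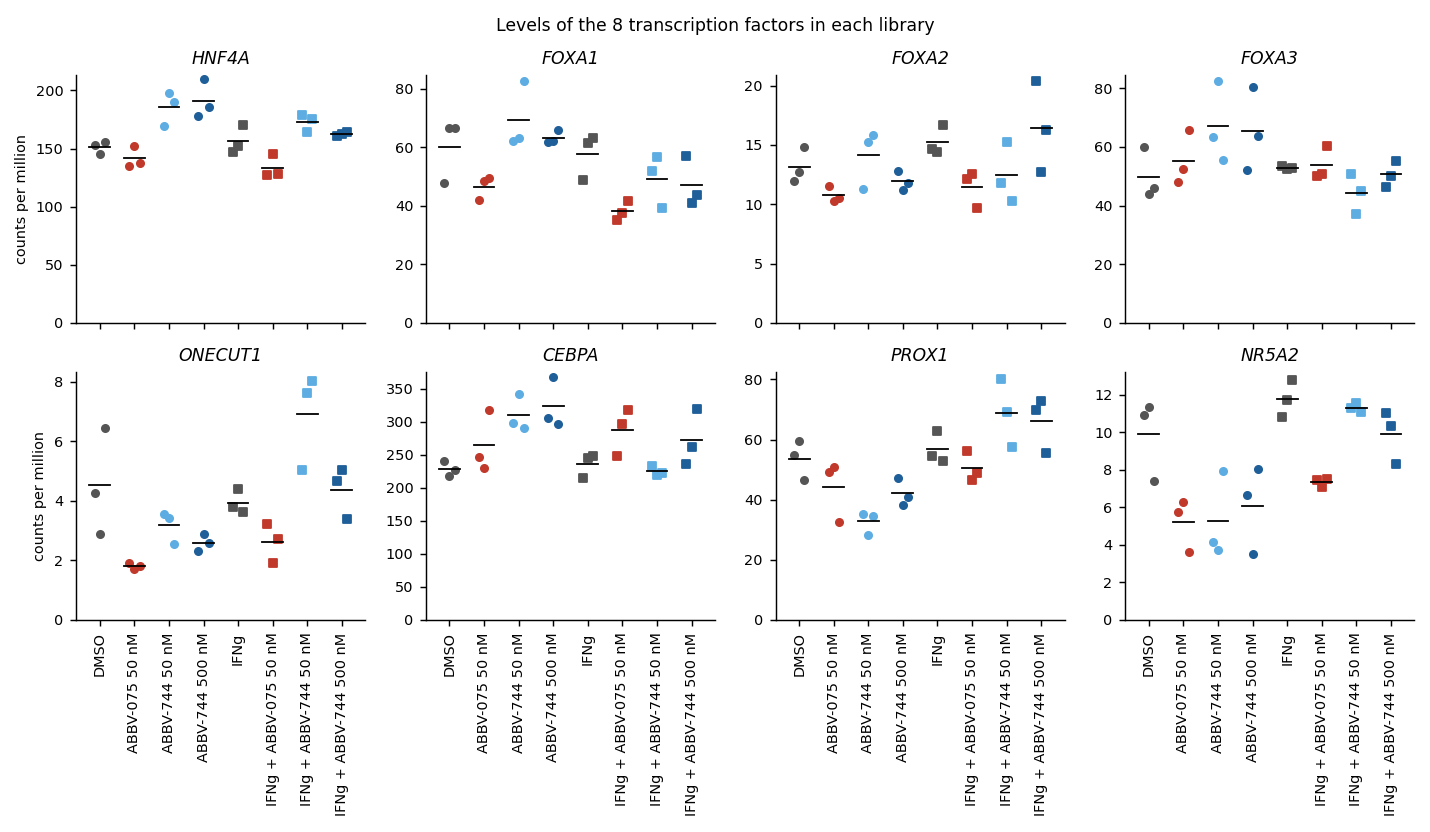
Levels of the 8 factors in each of 24 libraries, in CPM. Points are libraries, squares those with IFNg, and black lines are group means. ONECUT1 group means run from 1.82 in ABBV-075 to 6.90 in IFNg with ABBV-744 at 50 nM.

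HNF4A, the nuclear receptor at the centre of the hepatocyte network, stood at 153, 145 and 156 CPM in DMSO and at 169, 198 and 190.2 CPM in ABBV-744 at 50 nM. At 500 nM it stood at 178, 209.5 and 186 CPM. All 6 ABBV-744 libraries lay above all 3 DMSO libraries. The log2 fold change was 0.31 (SE 0.0978; edgeR, Benjamini-Hochberg adjusted p = 0.026) at 50 nM and 0.34 (SE 0.0938; edgeR, Benjamini-Hochberg adjusted p = 0.0125) at 500 nM. At 50 nM the call was lost without DMSO replicate 1, 2 or 3 or ABBV-744 50 nM replicate 3 (0.29 to 0.34) and in 5 of 12 alternative fits, among them the GC correction (0.14) and the share of reads outside genes as a covariate (-0.01), in which DMSO and ABBV-744 are apart. At 500 nM it was lost without DMSO replicate 2 (0.31), with a replicate block (0.34) and with that covariate (0.13), and the GC correction gave 0.23.

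ABBV-075 left HNF4A at 135, 152 and 138 CPM, which overlapped DMSO, with a log2 fold change of -0.12 (95% interval -0.35 to 0.12) and no call. Under IFNg alone it stood at 147, 152 and 169.8 CPM, and with IFNg and ABBV-075 at 127, 145 and 128 CPM. Every library with both agents lay below every IFNg library. The fall was by 0.24 on the log2 scale (SE 0.099; edgeR, Benjamini-Hochberg adjusted p = 0.0344). It was not called without IFNg replicate 2 or 3 or IFNg + ABBV-075 replicate 1 or 3 (-0.27 to -0.19), nor in 4 of 12 alternative fits, and the GC correction turned it to 0.03. With IFNg, ABBV-744 gave intervals that held 0 at 50 nM (0.16, 95% interval -0.01 to 0.33) and at 500 nM (0.03, -0.16 to 0.22), and after the GC correction HNF4A was called higher at both doses (0.48 and 0.33).

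FOXA1, a pioneer factor that opens liver enhancers, stood at 48.8, 61.4 and 63.1 CPM under IFNg and at 35.3, 37.5 and 41.6 CPM with IFNg and ABBV-075. The groups did not overlap. FOXA1 fell by 0.62 on the log2 scale (SE 0.132; edgeR, Benjamini-Hochberg adjusted p = 0.000139), to 0.652 of its IFNg level. This call held in 6 of 6 fits without 1 library and in 12 of 12 alternative fits, at -0.36 after the GC correction. Without IFNg, FOXA1 was at 47.6, 66.5 and 66.6 CPM in DMSO and at 41.9, 48.4 and 49.3 CPM in ABBV-075. DMSO replicate 1 lay among the treated libraries, and the log2 fold change of -0.40 was not called (edgeR, Benjamini-Hochberg adjusted p = 0.0639).

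ABBV-744 at 500 nM with IFNg left FOXA1 at 56.8, 40.8 and 43.6 CPM, with replicate 1 inside the IFNg range and the other libraries below it. FOXA1 fell by 0.32 (SE 0.133; edgeR, Benjamini-Hochberg adjusted p = 0.0462). That call was lost without IFNg replicate 2 or 3 or IFNg + ABBV-744 500 nM replicate 2 or 3 (-0.28 to -0.23) and in 8 of 12 alternative fits, with -0.07 after the GC correction. FOXA2, the forkhead factor of foregut endoderm, was not called in any comparison, and its group means ran from 10.8 CPM in ABBV-075 to 16.5 CPM in IFNg with ABBV-744 at 500 nM.

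FOXA3, the forkhead factor most abundant per length, stood at 59.9, 43.9 and 45.8 CPM in DMSO and at 63.3, 82.3 and 55.5 CPM in ABBV-744 at 50 nM. The lowest treated library lay inside the DMSO range. FOXA3 rose by 0.45 (SE 0.143; edgeR, Benjamini-Hochberg adjusted p = 0.0286). The call was lost without DMSO replicate 2 or 3 or ABBV-744 50 nM replicate 2 (0.27 to 0.40, lowest without the last) and in 6 of 12 alternative fits, with 0.22 after the GC correction and -0.38 with the share of reads outside genes as a covariate. At 500 nM the value was 0.40 (95% interval 0.11 to 0.69), and with ABBV-075 it was 0.13 (-0.24 to 0.50), neither called.

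ONECUT1, a homeodomain factor that acts upstream of HNF4A in liver development, was the least abundant of the 8. It stood at 4.26, 2.90 and 6.44 CPM in DMSO and at 1.93, 1.72 and 1.80 CPM in ABBV-075, from 6 to 8 counts per treated library. All treated libraries lay below all DMSO libraries. ONECUT1 fell by 1.32 on the log2 scale (SE 0.39; edgeR, Benjamini-Hochberg adjusted p = 0.0182), with a 95% interval of -2.16 to -0.47. The call was lost without DMSO replicate 3 (-0.96) or ABBV-075 replicate 2 (-1.28) and with DESeq2 (-1.33), and the GC correction gave -1.23. With ABBV-744 it stood at 3.57, 3.43 and 2.54 CPM at 50 nM (-0.48) and at 2.32, 2.88 and 2.59 CPM at 500 nM (-0.79), neither called.

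ONECUT1 moved apart under the inhibitors in cells with IFNg. It stood at 3.79, 4.41 and 3.61 CPM under IFNg, at 5.05, 7.62 and 8.02 CPM with IFNg and ABBV-744 at 50 nM, and at 3.23, 1.90 and 2.71 CPM with IFNg and ABBV-075. The ABBV-744 libraries all lay above the IFNg range and the ABBV-075 libraries all below it. Against IFNg, ONECUT1 rose by 0.81 with ABBV-744 at 50 nM (SE 0.301; edgeR, Benjamini-Hochberg adjusted p = 0.0249) and was not called with ABBV-075 (-0.59, 95% interval -1.33 to 0.15). The rise was lost without IFNg replicate 1 or 3 or IFNg + ABBV-744 50 nM replicate 2 or 3 (0.66 to 0.79), with DESeq2 (0.81) and with the share of reads outside genes as a covariate (0.64), and it was 0.89 after the GC correction. At 500 nM with IFNg, ONECUT1 was at 4.68, 5.03 and 3.38 CPM and was not called (0.13, 95% interval -0.55 to 0.81).

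CEBPA, a leucine zipper factor that holds hepatocytes in a differentiated, resting state, stood at 241, 217.5 and 227 CPM in DMSO. In ABBV-744 it stood at 297.5, 341.5 and 290.4 CPM at 50 nM and at 306, 368 and 296 CPM at 500 nM. All 6 treated libraries lay above all DMSO libraries. CEBPA rose by 0.46 at 50 nM (SE 0.0958; edgeR, Benjamini-Hochberg adjusted p = 0.0018) and by 0.51 at 500 nM (SE 0.094; edgeR, Benjamini-Hochberg adjusted p = 0.000334), 1.38 and 1.42 times DMSO. Both calls held in 6 of 6 fits without 1 library. The GC correction ended the first (0.20) but not the second (0.37), and the share of reads outside genes as a covariate ended both (0.09 and 0.20).

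In ABBV-075 CEBPA stood at 247, 229.8 and 318 CPM, with replicate 3 far above DMSO and replicate 2 within it, and the change of 0.19 was not called. With IFNg it rose from 215, 245 and 248 CPM to 248, 297 and 317 CPM under ABBV-075, and the lowest treated library lay level with the highest IFNg library. The log2 fold change was 0.27 (SE 0.0948; edgeR, Benjamini-Hochberg adjusted p = 0.0162), lost without IFNg replicate 1 or IFNg + ABBV-075 replicate 2 or 3 (0.19 to 0.24) and with all 24 libraries in the fit (0.27), and 0.28 after the GC correction. With ABBV-744 at 50 nM and IFNg, CEBPA was at 233, 219 and 223 CPM, inside the IFNg range and not called (-0.06), and the GC correction turned it to a called rise of 0.24. At 500 nM with IFNg it was at 236, 262 and 319.6 CPM and not called (0.19), with a called 0.31 after the GC correction. The value was 0.07 without IFNg + ABBV-744 500 nM replicate 3 and a called 0.30 without replicate 1. CEBPA was also called there with the replicate block (0.18) and the length correction (0.33).

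PROX1, a homeodomain factor of liver development that represses bile acid synthesis, stood at 54.8, 59.6 and 46.5 CPM in DMSO and at 35.4, 28.4 and 34.6 CPM in ABBV-744 at 50 nM. The groups did not overlap. PROX1 fell by 0.69 (SE 0.136; edgeR, Benjamini-Hochberg adjusted p = 0.00109), to 0.618 of DMSO. The call held in 6 of 6 fits without 1 library, and the GC correction left it called at -0.45. The share of reads outside genes as a covariate ended it (-0.29). At 500 nM, PROX1 stood at 47.3, 38.1 and 40.8 CPM with a log2 fold change of -0.34 that was not called.

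In cells with IFNg, PROX1 was higher with ABBV-744 at 50 nM than without it. It stood at 54.4, 62.9 and 52.8 CPM under IFNg and at 80.0, 69.2 and 57.6 CPM with IFNg and ABBV-744 at 50 nM, where replicates 1 and 2 lay above the IFNg range and replicate 3 inside it. PROX1 rose by 0.30 (SE 0.119; edgeR, Benjamini-Hochberg adjusted p = 0.0348). The call was lost without IFNg replicate 1 or 3 or IFNg + ABBV-744 50 nM replicate 1 or 2 (0.16 to 0.29, lowest without replicate 1 of the treated libraries) and in 6 of 12 alternative fits, and the GC correction turned it to -0.20, not called. ABBV-075 gave PROX1 values of -0.30 without IFNg and -0.18 with it, neither called, and both were called after the GC correction (-0.55 and -0.52).

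NR5A2, a nuclear receptor of bile acid and cholesterol genes, stood at 10.9, 11.4 and 7.40 CPM in DMSO, at 5.77, 6.30 and 3.61 CPM in ABBV-075, and at 4.16, 3.74 and 7.93 CPM in ABBV-744 at 50 nM. The ABBV-075 libraries all lay below DMSO, and ABBV-744 replicate 3 lay inside the DMSO range. With ABBV-075, NR5A2 fell by 0.93 (SE 0.276; edgeR, Benjamini-Hochberg adjusted p = 0.0189), to 0.526 of DMSO. The call was lost without DMSO replicate 1 (-0.85) or replicate 2 (-0.81), held in 12 of 12 alternative fits and was -1.22 after the GC correction. With ABBV-744 at 50 nM it fell by 0.89 (SE 0.288; edgeR, Benjamini-Hochberg adjusted p = 0.0311). That call was lost without DMSO replicate 1 or 2 or ABBV-744 50 nM replicate 1 or 2 (-0.82 to -0.71), and in 3 of 11 alternative fits, with -0.64 after the GC correction. At 500 nM NR5A2 stood at 6.67, 3.52 and 8.05 CPM (-0.68, 95% interval -1.24 to -0.11), not called.

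Under IFNg, NR5A2 stood at 10.8, 11.8 and 12.8 CPM, and with IFNg and ABBV-075 at 7.45, 7.07 and 7.54 CPM. The groups were well apart. NR5A2 fell by 0.69 (SE 0.232; edgeR, Benjamini-Hochberg adjusted p = 0.0106), a call that held in 6 of 6 fits without 1 library and in 12 of 12 alternative fits, and that was -1.08 after the GC correction. With IFNg and ABBV-744 at 50 nM it stood at 11.3, 11.6 and 11.1 CPM, inside the IFNg range (-0.05, 95% interval -0.46 to 0.36). At 500 nM with IFNg it stood at 11.03, 10.4 and 8.29 CPM (-0.28, not called). After the GC correction NR5A2 was called lower at both doses with IFNg (-0.60 and -0.70).

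**Figure D3:**
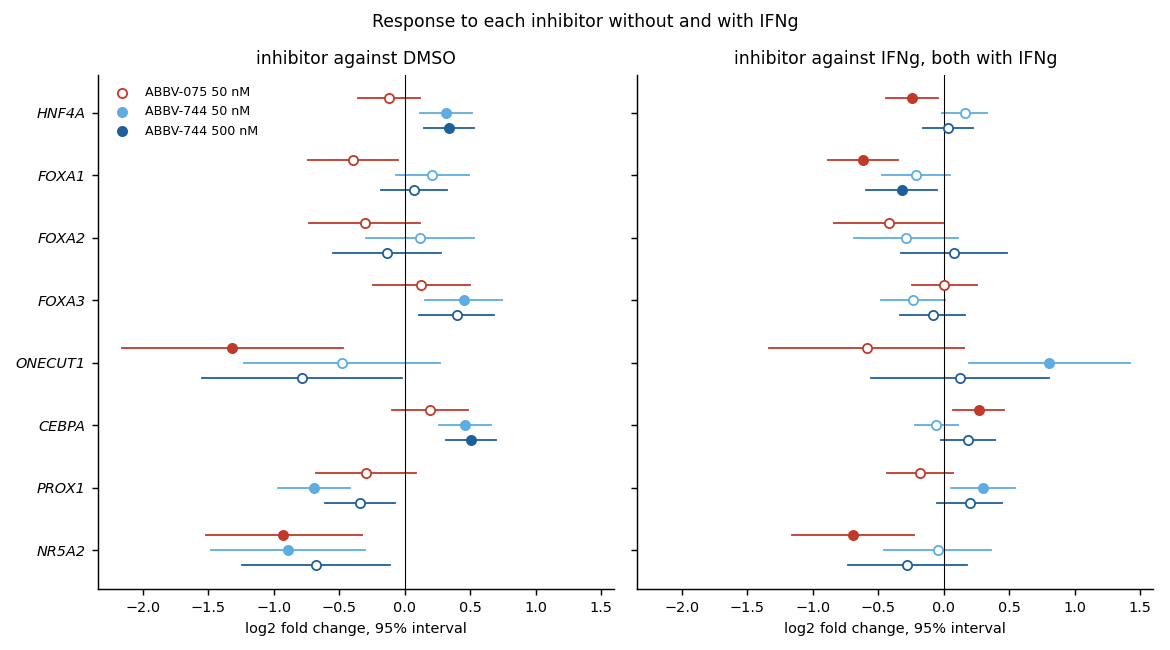
Log2 fold changes of the 8 factors for each inhibitor, against DMSO on the left and against IFNg on the right. Points are estimates, filled where the adjusted p was at most 0.05, and lines are 95% intervals. FOXA1 with IFNg and ABBV-075 (-0.62) and CEBPA with ABBV-744 at 500 nM (0.51) stand clear of 0, while PROX1 with ABBV-744 at 50 nM lies at -0.69 on the left and 0.30 on the right.

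The inhibitors were compared directly at the matched dose of 50 nM in 2 pairs of groups, without and with IFNg, and p-values were adjusted over all genes in each. Without IFNg, 2 of 7 tested factors were lower with ABBV-075 than with ABBV-744, against 19.4% of 10992 genes, and 0 were higher, against 21.4%. ONECUT1 did not pass the filter on low counts there. Of the tested markers of other cell types, KRT19 (-0.48) and ACTA2 (-0.79) were called lower with ABBV-075, and CD68 and SOX9 were not called. FOXA1 was lower by a log2 difference of -0.59 (SE 0.159, 95% interval -0.94 to -0.24; edgeR, Benjamini-Hochberg adjusted p = 0.0144), and no ABBV-075 library reached the lowest ABBV-744 library, at 62.1 CPM. HNF4A was lower by -0.41 (SE 0.119, 95% interval -0.67 to -0.14; edgeR, Benjamini-Hochberg adjusted p = 0.0207). The FOXA1 call was lost without ABBV-744 50 nM replicate 3 (-0.44) and with the share of reads outside genes as a covariate (-0.47), and was -0.38 after the GC correction. The HNF4A call was lost without ABBV-075 replicate 1 or 2 or ABBV-744 50 nM replicate 2 or 3 (-0.44 to -0.36), with that covariate (-0.35) and after the GC correction (-0.06). No difference was called for NR5A2 (-0.01, 95% interval -0.80 to 0.78), CEBPA (-0.24, -0.55 to 0.07), FOXA3 (-0.30, -0.70 to 0.10), FOXA2 (-0.40, -0.87 to 0.08) or PROX1 (0.42, -0.01 to 0.85), and these intervals are wide. Without ABBV-075 replicate 3, whose GC contrast was 0.20 against -0.73 and -0.41 in the other ABBV-075 libraries, CEBPA (-0.39) and PROX1 (0.60) were called. With all 6 libraries, the GC correction gave 0.10 for CEBPA and -0.08 for PROX1, not called.

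With IFNg in both groups, 7 of the 8 factors differed between the inhibitors. ONECUT1, HNF4A, PROX1, FOXA1 and NR5A2 were lower with ABBV-075, against 17% of 11126 genes, and CEBPA and FOXA3 were higher, against 16.7%. Of the tested markers of other cell types, KRT19 was called higher with ABBV-075 (0.71), and ACTA2, CD68 and SOX9 were not called. By library size alone the split of all genes was 1166 higher and 2836 lower in place of 1860 and 1892, with the median moved by -0.12. ONECUT1 differed most, at -1.32 (SE 0.333; edgeR, Benjamini-Hochberg adjusted p = 0.00176), and its lowest ABBV-744 library, at 5.05 CPM, lay above its highest ABBV-075 library, at 3.23 CPM. HNF4A differed by -0.33 (SE 0.0895; edgeR, Benjamini-Hochberg adjusted p = 0.00369), PROX1 by -0.40 (SE 0.117; edgeR, Benjamini-Hochberg adjusted p = 0.00619) and CEBPA by 0.40 (SE 0.0885; edgeR, Benjamini-Hochberg adjusted p = 0.000409). FOXA1 (-0.33), NR5A2 (-0.57) and FOXA3 (0.31) were nearer the threshold, and FOXA2 was not called (-0.06, 95% interval -0.48 to 0.36).

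The calls on ONECUT1, HNF4A and CEBPA held in 6 of 6 fits without 1 library. PROX1 was lost without IFNg + ABBV-075 replicate 2 or IFNg + ABBV-744 50 nM replicate 1 (-0.35 to -0.28), and FOXA1 without IFNg + ABBV-075 replicate 1 or 2 or IFNg + ABBV-744 50 nM replicate 1 or 2 (-0.32 to -0.22, the smallest without the last). FOXA3 was lost without IFNg + ABBV-075 replicate 2 or 3 or IFNg + ABBV-744 50 nM replicate 2 or 3 (0.21 to 0.35), and NR5A2 in all 6 such fits (-0.60 to -0.55). After the GC correction ONECUT1 (-1.28), HNF4A (-0.44), FOXA1 (-0.35) and PROX1 (-0.30) were still called and CEBPA (0.06), FOXA3 (0.09) and NR5A2 (-0.46) were not, and with the share of reads outside genes as a covariate 0 factors were called.

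The doses of ABBV-744 gave no called difference in any factor. Between 500 nM and 50 nM edgeR called 0 of 7 tested factors, with 1 at unadjusted p under 0.05 and 0 by DESeq2, against 0% of 10967 genes higher and 0.0274% lower. With IFNg it called 0 of 8, with 2 at unadjusted p under 0.05 and 0 by DESeq2, which gave an adjusted p for only 3 of the 8, against 1.41% of 11022 genes higher and 0.29% lower. CEBPA with IFNg came nearest, with 0.31 (95% interval 0.12 to 0.49; edgeR, Benjamini-Hochberg adjusted p = 0.0772). It was 0.41 and called without IFNg + ABBV-744 500 nM replicate 1 and 0.16 without replicate 3, was called with a replicate block or without the filter on low counts, and was 0.07 after the GC correction. By library size alone the split with IFNg was 76 higher and 92 lower genes in place of 155 and 32.

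Whether IFNg altered the response to an inhibitor was tested by the interaction term, the log2 fold change with IFNg minus that without. For ABBV-075, edgeR called 0 of 8 factors, with 0 at unadjusted p under 0.05 and 0 by DESeq2, against 0.0347% of 11530 genes. The intervals were broad, from -0.39 to 1.80 for ONECUT1 and from -0.67 to 0.20 for FOXA1. For ABBV-744 at 500 nM, PROX1 was the 1 factor called, against 33.5% of 11428 genes, with an interaction of 0.56 (SE 0.182; edgeR, Benjamini-Hochberg adjusted p = 0.0173). It was lost without DMSO replicate 2 or IFNg + ABBV-744 500 nM replicate 2 (0.47 to 0.51) and in 4 of 12 alternative fits, with 0.04 after the GC correction. By library size alone the split of all genes was 2292 higher and 1095 lower in place of 2115 and 1712. Of the tested markers of other cell types, ACTA2 (-1.18), CD68 (-0.93), KRT19 (-0.63) and SOX9 (-0.45) were called lower in this interaction. CD14 and PDGFRB were not called.

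The interaction for ABBV-744 at 50 nM was added after seeing the data, because PROX1 was called lower with this dose without IFNg and higher with it. For PROX1 it therefore restates what prompted it. It called 5 of the 8 factors, against 51.6% of 11451 genes, so the factors did not stand apart from genes at large. PROX1 (0.96, SE 0.187; edgeR, Benjamini-Hochberg adjusted p = 0.000103), ONECUT1 (1.26, SE 0.47; edgeR, Benjamini-Hochberg adjusted p = 0.0266) and NR5A2 (0.82, SE 0.346; edgeR, Benjamini-Hochberg adjusted p = 0.0491) were higher with IFNg than the response without it. CEBPA (-0.54, SE 0.12; edgeR, Benjamini-Hochberg adjusted p = 0.000456) and FOXA3 (-0.71, SE 0.199; edgeR, Benjamini-Hochberg adjusted p = 0.0039) were lower. PROX1 and NR5A2 are GC-poor transcripts and CEBPA and FOXA3 GC-rich ones, FOXA2, also GC-rich, was not called (-0.43), and the GC contrast of the libraries differed in the same comparison. After the GC correction PROX1 (0.26), NR5A2 (0.04), CEBPA (0.03, a turned sign) and FOXA3 (-0.13) were not called, ONECUT1 was (1.39), HNF4A became called (0.34, from -0.18), and 2351 genes were called in place of 5905.

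The calls on PROX1, CEBPA and FOXA3 in this interaction held in 12 of 12 fits without 1 library. ONECUT1 was lost without DMSO replicate 3 (0.90), ABBV-744 50 nM replicate 3, IFNg replicate 3 or IFNg + ABBV-744 50 nM replicate 2 or 3 (up to 1.19), and NR5A2 in 10 of 12 such fits (0.63 to 0.88), all but those without DMSO replicate 3 or ABBV-744 50 nM replicate 3. NR5A2 was also lost in 8 of 12 alternative fits, among them DESeq2, the replicate block and all 24 libraries in the fit. By library size alone the split was 3386 higher and 1740 lower genes in place of 2866 and 3039, with the median moved by 0.19.

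**Figure D4:**
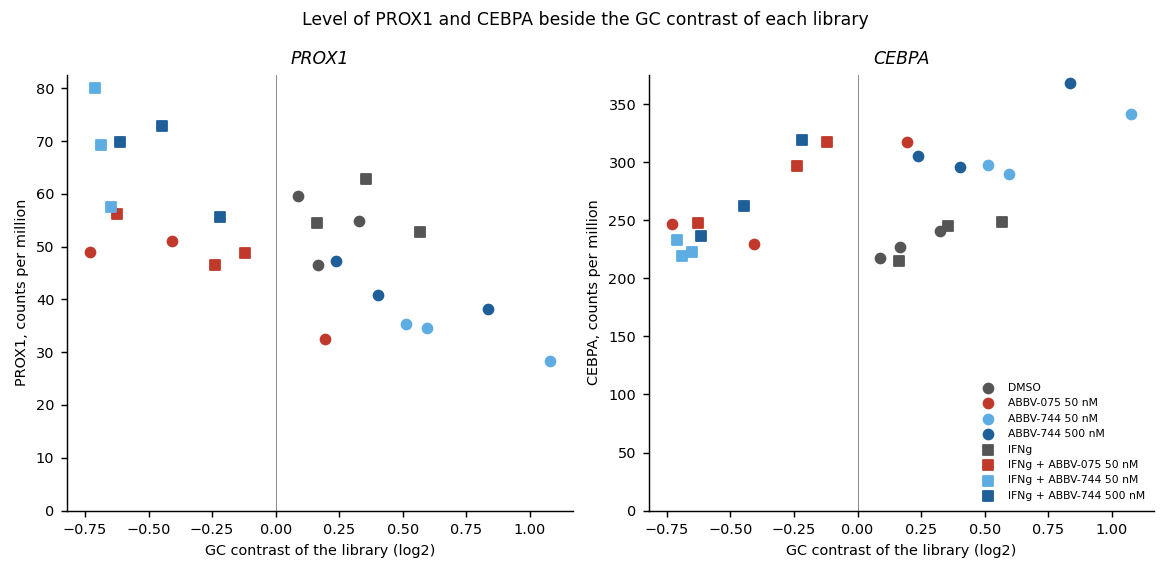
Level of PROX1 (left) and CEBPA (right) in CPM beside the GC contrast of each library on the log2 scale, for 24 libraries. Squares are libraries with IFNg. The ABBV-744 50 nM libraries lie at 0.51 to 1.08 without IFNg and at -0.71 to -0.65 with it, and PROX1 is lower in the former (28.4 to 35.4) than in the latter (57.6 to 80.0).

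Beyond the 8 factors, 27 other liver-enriched transcription factors were followed, of which 23 were tested with ABBV-075 against DMSO. Of these 8 fell, against 19.6% of all genes, and 1 rose, against 19.8%, and their median log2 fold change was -0.14 against 0.03 over all genes. NR1H4, the bile acid receptor FXR, stood at 54.3, 59.6 and 48.5 CPM in DMSO and at 4.09, 4.87 and 2.41 CPM in ABBV-075. Every treated library lay far below every control, and NR1H4 fell by 3.83. NR1I2, the xenobiotic receptor PXR (-1.50), also fell. Both calls held in all 6 fits without 1 library. No fall of the 8 factors was of the size of that of NR1H4.

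With IFNg, ABBV-075 lowered 11 of 24 tested factors of that list, against 28.4% of all genes, and raised 3, against 28.2% (median -0.36, against -0.00298 over all genes), among them NR1H4 (-3.60), NR1I2 (-2.52) and CREB3L3, a factor of triglyceride metabolism (-2.50). Without IFNg, NR1H4 also answered to ABBV-744. It stood at 27.6, 22.8 and 24.7 CPM at 50 nM (-1.09) and at 25.3, 24.7 and 23.3 CPM at 500 nM (-1.14), between DMSO and ABBV-075. The call at 50 nM was lost with the share of reads outside genes as a covariate (-0.72) and was -0.85 after the GC correction, and that at 500 nM held in 12 of 12 alternative fits. Of the list, 2 of 23 rose at 50 nM, against 8.81% of all genes, and 3 fell, against 10.1%. At 500 nM 1 rose, against 7.48%, and 3 fell, against 7.8%. With IFNg, 4 of 24 rose at 50 nM, against 27.4%, and 6 fell, against 24.3%, and at 500 nM 3 rose, against 22.9%, and 7 fell, against 22.8%. HNF4G, a paralogue of HNF4A, rose by 0.92 and by 0.83 against IFNg at these doses, and ONECUT2, a paralogue of ONECUT1, by 0.90 at 50 nM. The GC correction brought HNF4G to -0.00249 and 0.08 and ended both calls.

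At the matched dose of 50 nM without IFNg, NR1H4 was lower with ABBV-075 than with ABBV-744 by a log2 difference of -2.72. With IFNg in both groups NR1H4 was also called lower with ABBV-075, at -3.63 to -3.23 in 6 of 6 fits without 1 library. IFNg alone raised 2 of 24 tested factors of the list, CEBPB (0.51) and CEBPD (0.54), leucine zipper factors of the acute phase response, against 2.76% of all genes, and lowered 0, against 0.695%. The CEBPD call was lost without DMSO replicate 2 or IFNg replicate 2 (0.50) and with DESeq2 or all 24 libraries in the fit.

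Long noncoding RNAs beside or antisense to these genes were followed as well. With ABBV-075 against DMSO, HNF4A-AS1 fell by 1.70, LINC00261, the neighbour of FOXA2, by 1.31 and CEBPA-AS1 by 0.97. The last was lost without DMSO replicate 1 or 2 or ABBV-075 replicate 1 (-0.97 to -0.71), with DESeq2 and with a length correction. HNF4A-AS1 (chr20:44372746-44395706, minus strand) lies within HNF4A (chr20:44355699-44432845, plus strand), and 98.3% to 98.5% of stranded reads fell on the annotated strand. HNF4A-AS1 had only 2 to 30 counts per library, and whether reads of HNF4A on the other strand are among them was not tested. While HNF4A-AS1 fell, HNF4A was not called with ABBV-075. With IFNg, ABBV-075 lowered HNF4A-AS1 by 2.11 and LINC00261 by 1.78, and CEBPA-AS1 was not called (-0.06). ABBV-744 itself lowered LINC00261 by 0.60 at 50 nM (lost without DMSO replicate 1 or 2 or ABBV-744 50 nM replicate 1 or 2, -0.59 to -0.50, with DESeq2, after the GC correction, -0.45, and with the share of reads outside genes as a covariate, -0.28). At 500 nM it fell by 0.78 (lost without DMSO replicate 2, -0.68, and with that covariate, -0.52).

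**Figure D5:**
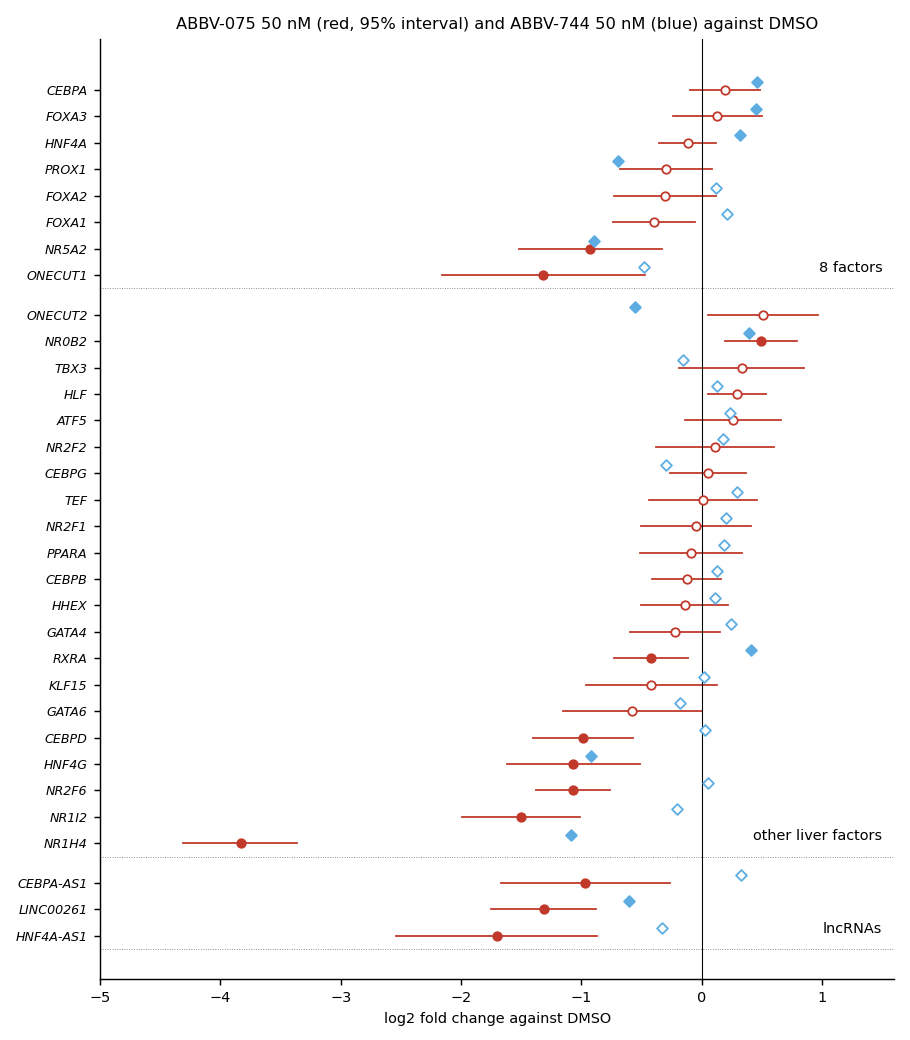
Log2 fold changes against DMSO of the 8 factors, most of the other tested liver factors and 3 long noncoding RNAs. Red circles with 95% intervals are ABBV-075 and blue diamonds ABBV-744, both at 50 nM, filled where the adjusted p was at most 0.05. NR1H4 (-3.83) lies farthest left with ABBV-075, followed by HNF4A-AS1 (-1.70).

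Genes of hepatocyte function were counted as well, and whether they depend on the 8 factors in these cells was not tested. With ABBV-075 against DMSO, 12 of 24 tested fell, against 19.6% of all genes, and 1 rose, against 19.8% (median -0.36). TAT, which breaks down tyrosine, had 17 to 23 counts per library in DMSO and 0 to 1 in ABBV-075, and fell by 4.45. PCK1, the first committed enzyme of gluconeogenesis, fell by 1.75 and F7, a clotting factor, by 1.73. With IFNg and ABBV-075, 15 of 22 fell, against 28.4%, and 5 rose, against 28.2% (median -0.53). ABBV-744 at 50 nM against DMSO lowered 3 of 24, against 10.1%, and raised 5, against 8.81%. At 500 nM it lowered 4, against 7.8%, and raised 4, against 7.48%. IFNg alone lowered 3 of 24, against 0.695%, and raised 0, against 2.76%. With IFNg, ABBV-744 at 50 nM lowered 13 of 21, against 24.3%, and raised 4, against 27.4%, and at 500 nM it lowered 14 of 21, against 22.8%, and raised 4, against 22.9%.

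Across the 8 group means, the factors' own patterns were compared as a description, over points that share libraries, depth and GC contrast. The correlation of log2 CPM was -0.91 between FOXA3 and PROX1, 0.89 between PROX1 and NR5A2, 0.87 between FOXA3 and CEBPA, and 0.81 between ONECUT1 and NR5A2. FOXA3 and CEBPA are GC-rich and PROX1 and NR5A2 GC-poor, and the part of the libraries' GC contrast in these values was not tested. Among 7468 genes that averaged 4 or more in log2 CPM, the most alike in pattern to HNF4A were RPTOR, ZNF747 and TPD52L2 (r from 0.948 to 0.951), and to CEBPA NOTUM, ACBD4 and APOA1 (0.969 to 0.980). PROX1 was most like RASSF3, TRMT11 and KDELC2 (0.972 to 0.977), and NR5A2 most like DRAM1, GK and CAP2 (0.960 to 0.963). FOXA1 went with SERPINA4, FUT10 and TSSC1 (0.990 to 0.993), FOXA3 with NELFB, PTPRS and TSEN54 (0.988 to 0.990), FOXA2 with UVRAG, EHMT2 and WIBG (0.892 to 0.899), and ONECUT1 with NUDT5, PFDN4 and SENP1 (0.963 to 0.981). Over the 24 single libraries at most 1 of each 3 was found again.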

How the data were processed

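RNA-seq was done on 24 HepG2 libraries in 8 groups of 3, grouped by the labels. The counts per gene were deposited by the authors, made from reads with CASAVA 1.8.2, Trimmomatic 0.33 and STAR 2.7.1, and the authors' own test was DESeq2. The counts of the gene strand were used. Lines of each count file that name no gene, which hold unmapped, multimapping, ambiguous and no-feature reads (14.8% to 25.3% of reads for the last), were left out of library sizes and tests. Here genes were filtered with filterByExpr (minimum count 10, total 15), scaled by TMM and tested with edgeR 4.0.16 (limma 3.58.1, R 4.3.3) on the groups compared, with Benjamini-Hochberg adjustment over all tested genes. Log2 CPM used a prior count of 2. The test was tried on simulated data first. Summaries and plots used Python 3.11.15 with numpy 2.4.6, pandas 2.3.3 and matplotlib 3.10.9. Lengths and GC content came from an annotation matched by symbol (23123 of 26475 symbols, with 1381 more by an older name and 1971 unmatched), and promoters from RefSeq.

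Alternatives were DESeq2 1.42.0, RLE normalization, library size alone, no filter, a minimum of 10 counts per library, a shared fit of the 24 libraries, a replicate block, a GC correction (lowess, span 0.3, as offsets) without and with that block, unstranded counts, and leaving out each library. A length correction, the share of reads outside genes as a covariate and the interaction of ABBV-744 at 50 nM with IFNg were chosen after seeing the data. The 8 factors and all lists were chosen with earlier results of these data known. All factors could be named in every comparison. Outside them, up to 4 called genes with the largest change per list, all treatment checks, all long noncoding RNAs and 3 genes most alike in pattern to each factor could be named. Replicate numbers were not taken to pair the libraries, because in no comparison did all 3 pairs correlate above 0.1. Between ABBV-744 at 500 nM and 50 nM without IFNg, r was 0.25, 0.33 and 0.06 for replicates 1, 2 and 3, so pairing there was not excluded. Some genes of the lists fixed in advance stay in the counts of their list but are not reported here.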

Additional observations from a re-analysis of the deposited data

Results flagged for a closer look

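The interaction term, the response to ABBV-744 with IFNg less that without it, was called for several genes, each with 3 libraries per group. For ABBV-744 at 500 nM it was 0.561 for PROX1, 1.52 for HNF4G and 0.764 for ONECUT2 on the log2 scale. For ABBV-744 at 50 nM the test was added after PROX1 had been seen to move in opposite directions in the same libraries, so for PROX1 it restates what prompted it. There it was 0.963 for PROX1, 1.26 for ONECUT1, 0.816 for NR5A2, 1.81 for HNF4G and 1.42 for ONECUT2, and it was -0.544 for CEBPA and -0.713 for FOXA3. Of all genes 33.5% at 500 nM and 51.6% at 50 nM passed the same test, and the GC contrast of the libraries changed sign between the groups compared. After the GC correction ONECUT1 (1.39) and ONECUT2 (0.94) were still called at 50 nM and the other genes named here were not. The ONECUT2 call at 500 nM was lost without ABBV-744 500 nM replicate 2 or IFNg + ABBV-744 500 nM replicate 1 (0.63 to 0.67).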

How the results depend on the processing

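Over 14 comparisons, 31 calls were made on the 8 factors. RLE normalization kept 30 of these, unstranded counts 29, no filter on low counts 28, the replicate block 28, library size alone 27, the length correction 26, all 24 libraries in the fit 22, DESeq2 20 of 30 with an adjusted p, the GC correction 15 and the share of reads outside genes as a covariate 8. At least 10 counts in every library kept 28 of 28. The GC correction also added 10 calls. The cause of these changes was not tested. Where the GC contrast does not overlap between the groups compared, the GC correction and the treatment cannot be told apart. Calls that it lost or added there do not show which value is right. In both comparisons of ABBV-744 with DMSO, between the inhibitors with IFNg and between doses with IFNg, the share of reads outside genes does not overlap between the groups, so there the covariate and the treatment cannot be told apart and calls lost with it do not speak against them.

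DESeq2 counts below are over the factors it gave an adjusted p, which leave out ONECUT1 with ABBV-744 at either dose and NR5A2 with 50 nM against DMSO, and 5 factors between doses with IFNg. The number of factors changed with ABBV-075 against DMSO (2) was 1 with DESeq2 and with at least 10 counts in every library, and 4 with the GC correction. With ABBV-744 at 50 nM (5) it was 3 with DESeq2 and library size alone, 1 with the GC correction and 0 with the covariate, and at 500 nM (2) it was 0 with the covariate. With IFNg, ABBV-744 at 50 nM (2) gave 0 with DESeq2, 1 with all 24 libraries, the length correction or the covariate, and 4 with the GC correction, and at 500 nM (1) gave 3 with the GC correction and 0 with DESeq2, RLE, library size alone, no filter or all 24 libraries. Between the inhibitors without IFNg (2) it was 1 with the GC correction and 0 with the covariate, and with IFNg (7) it was 4 with DESeq2, all 24 libraries or the GC correction and 0 with the covariate. Between doses with IFNg (0) it was 1 without the filter. The interaction at 500 nM (1) gave 0 with all 24 libraries or the GC correction, and that at 50 nM (5) gave 2 with the GC correction and 0 with the covariate.

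Signs turned under the covariate for HNF4A (-0.0129) and FOXA3 (-0.376) with ABBV-744 at 50 nM against DMSO and for FOXA3 between the inhibitors with IFNg (-0.0405). They turned under the GC correction for HNF4A with IFNg and ABBV-075 (0.0302), for CEBPA (0.24), PROX1 (-0.2) and HNF4G (-0.00249) with IFNg and ABBV-744 at 50 nM, and for HNF4A (0.335) and CEBPA (0.0324) in the interaction at 50 nM. The same correction with the replicate block gave 0.0289 for HNF4A, 0.238 for CEBPA and -0.205 for PROX1, then 0.336 for HNF4A and 0.0324 for CEBPA. In the order above, the numbers of factors changed were then 4, 1, 4, 3, 1, 4, 0 and 2, as with the GC correction alone.

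With the replicate block alone, the number of factors changed was 1 for ABBV-744 at 500 nM against DMSO, 2 for it with IFNg and 1 between doses with IFNg, and it was 4 in place of 5 for ABBV-744 at 50 nM against DMSO. The numbers were not taken to pair the libraries, though pairing between doses without IFNg was not excluded. The block called 320 genes between doses without IFNg in place of 3.

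In 90 fits without 1 library, besides those of the added interaction, the number of factors changed ranged from 1 to 3 with ABBV-075 against DMSO, 2 to 4 with ABBV-744 at 50 nM, 1 to 4 at 500 nM and 0 to 0 with IFNg. With IFNg it ranged from 2 to 3 for ABBV-075, 0 to 2 for ABBV-744 at 50 nM and 0 to 2 at 500 nM. Between the inhibitors it ranged from 0 to 4 without and 3 to 5 with IFNg, between doses from 0 to 0 and 0 to 1, and for the interactions from 0 to 0 (ABBV-075), 0 to 3 (500 nM) and 3 to 5 (50 nM).

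Of all genes, ABBV-744 at 50 nM against DMSO called 2102, but 1216 with DESeq2, 1203 with the GC correction (904 with the block) and 7 with the covariate. At 500 nM 1700 became 1042 with DESeq2 and 561 with the covariate. With IFNg at 50 nM 5766 became 3843 with the GC correction (3808 with the block). Between the inhibitors 4481 became 2387 without and 3752 became 854 with IFNg, both with the covariate. Between doses with IFNg 187 became 85 with DESeq2, 2 with all 24 libraries, 96 with the GC correction, 122 with the length correction and 0 with the covariate. Without IFNg 3 became 7 with DESeq2 or the length correction, 13 without the filter, 9 with all 24 libraries, 16 with the GC correction (147 with the block) and 20 with the covariate. The ABBV-075 interaction went from 4 to 13 with DESeq2, 45 without the filter, 18 with the GC correction (27 with the block) and 121 with the covariate. The ABBV-744 interactions went from 3827 to 1918 with the GC correction (1833 with the block) at 500 nM, and from 5905 to 2351 (2307) and, with the covariate, 610 at 50 nM.

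Reads on genes, at most 4304103 per library, limit what can be seen of ONECUT1 and NR5A2, and with 3 libraries per group 1 library often decided a call near the threshold.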
